A study of Mus musculus with 9 samples.

Results

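The genes described are the nuclear end of the canonical WNT pathway and its feedback inhibitors in mouse melanocyte-lineage cells. They are 10 of the 49671 genes in the count tables, listed by symbol for their place in the pathway, with earlier results of these data known. Ctnnb1 encodes beta-catenin, the co-activator. Lef1, Tcf7, Tcf7l1 and Tcf7l2 encode the LEF/TCF DNA-binding factors. Axin2, Nkd1, Notum, Rnf43 and Znrf3 encode inhibitors of the pathway. All 10 were found, and all 10 passed the filter on low counts.

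RNA was sequenced from cells that carried the receptor KIT and lacked the immune marker CD45, sorted from the dermis of untreated female C57BL/6 mice with no engineered allele named. There were 3 libraries of melanoblasts, the precursors found in developing hair follicles, from wild-type pups at postnatal day 0.5 (P0.5). Adult melanocyte stem cells (McSC), held quiescent in resting (telogen) hair follicles, gave 4 libraries from wild-type females aged 8 to 10 weeks, and aged quiescent McSC, also from telogen skin, gave 2 libraries at 24 months. Pups and adults descended from in-house C57BL/6J breeding, but the aged wild-type C57BL/6 females arrived at 21 months from a colony of aged rodents, so age and colony of origin cannot be told apart. Each library pooled cells of several animals, and p-values therefore measure the spread between pools.

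When a WNT ligand binds a Frizzled receptor with LRP5 or LRP6, the complex of AXIN, APC and GSK3 that marks beta-catenin for destruction is held back, and beta-catenin enters the nucleus and joins LEF/TCF factors on DNA. Without beta-catenin these factors bind TLE corepressors and hold target genes down. Targets include inhibitors of the pathway itself, which makes a negative feedback loop. In melanocytes the pathway is known for acting on Mitf and Dct, genes of lineage identity and pigment, and in the hair follicle for activation of melanocyte stem cells at the start of hair growth.

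Melanoblast libraries were the deepest, with totals between 23688288 and 33710117 counts. Adult libraries held between 19956424 and 21572026 counts, and the aged pair 12594770 and 16362560. Mitochondrial rRNA took 32.6% to 37.6% of counts in melanoblasts, 21.9% to 33.6% in adult McSC and 21.5% to 24.6% in aged McSC. The 1429 genes of olfactory and vomeronasal receptors, which are known mainly from sensory neurons, held 155 to 348 ppm of the library total in melanoblasts, 707 to 1359 ppm in adult McSC and 1467 to 1573 ppm in aged McSC, with no overlap between groups. The receptor counts move with the groups in every comparison below, while mitochondrial rRNA overlaps between adult McSC and melanoblasts, and the part of either in the results was not tested. Of 9 melanocyte lineage markers, none was at 0 in all libraries of any group. Their summed level was 13959 to 25595 CPM (counts relative to the library total after TMM scaling, which sets library sizes so that most genes do not shift) in melanoblasts, 4174 to 10441 CPM in adult McSC and 7234 to 8465 CPM in aged McSC. Of these 9, 8 passed the test as lower in adult McSC than in melanoblasts, with a median log2 fold change of -1.51. In bulk RNA, fewer cells of a type and less RNA per cell cannot be told apart. The 10 markers of keratinocytes and hair follicle epithelium summed to 76.8 to 247 CPM in melanoblasts, 1008 to 2230 CPM in adult McSC and 802 to 982 CPM in aged McSC, and 10 of 10 were higher in adult McSC than in melanoblasts. No marker of this list was at 0 in all libraries of a group, and Dsp, a desmosome gene, was its most abundant. Of 7 Schwann cell markers, 5 were higher in adult McSC than in melanoblasts and 6 were lower in aged than in adult McSC. Their sum was 202 to 301 CPM in melanoblasts, 544 to 806 CPM in adult McSC and 128 to 204 CPM in aged McSC. Of 6 endothelial markers, 3 were higher in adult McSC than in melanoblasts (0 without adult replicate 3), where 15.1% of all genes were. They summed to 57.2 to 209 CPM in adult McSC and 37.6 to 81.1 CPM in melanoblasts. Of 7 fibroblast markers, 3 were lower in aged than in adult McSC, where 0.25% of all genes were. Their sums were 112 to 221 CPM in aged and 465 to 932 CPM in adult McSC. The part of any of these cells in the results that follow was not tested.

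Most of the pathway genes were lower in adult McSC than in newborn melanoblasts. With edgeR's quasi-likelihood test and Benjamini-Hochberg adjustment over 31961 genes, at an adjusted p under 0.05, 8 of the 10 fell, Rnf43 rose and Notum did not pass. Over all genes tested, 33.4% were called, 18.3% as lower and 15.1% as higher. The median log2 fold change of the 10 was -1.46, against 0.39 over all genes tested. Libraries of the groups did not overlap for 7 members that were lower and 1 that was higher in adult McSC, and 39.3% of all genes tested were separated in this way, 19.8% lower and 19.5% higher. Abundant genes as a class were lower in adult McSC: of 4043 genes with a mean log2 CPM above 5, which include Ctnnb1, Tcf7, Tcf7l2, Axin2 and Znrf3, 63.9% were called lower, 6.36% were called higher and the median log2 fold change was -0.80.

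Because of that shift, each fold change was also computed with scaling factors taken from the abundant genes alone, which moved the median of all genes by 0.79 on the log2 scale. All genes tested then split into 10785 higher and 1784 lower calls, against 4836 higher and 5840 lower with TMM factors from all genes. The TMM factors themselves followed age: melanoblast libraries had factors of 0.56 to 0.84, adult libraries 1.09 to 1.21 and aged libraries 1.52 and 1.38. Under the abundant-gene factors Ctnnb1, Lef1, Tcf7, Tcf7l1, Axin2 and Nkd1 were still called lower and Rnf43 higher in adult McSC. Znrf3 and Tcf7l2 were not called, at log2 fold changes of -0.01 and 0.27.

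**Figure D1:**
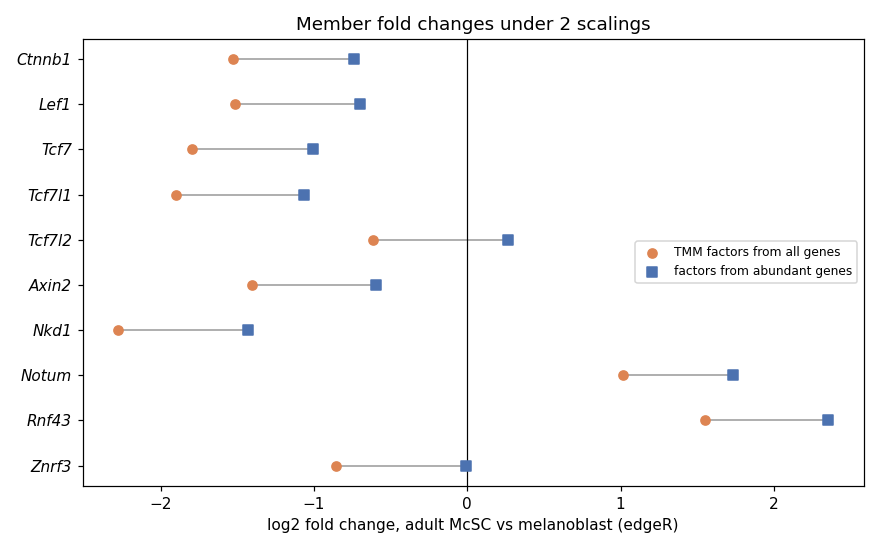
Log2 fold change of each member in adult McSC against melanoblasts (x axis, edgeR) with TMM factors from all genes (circles) and with factors from abundant genes only (squares). All members move to the right under the second scaling; Nkd1 stays lowest at -1.43, Znrf3 reaches -0.01, Tcf7l2 crosses 0 to 0.27 and Rnf43 stays highest at 2.35.

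Ctnnb1, whose protein also links cadherins to the cell skeleton, lies on chromosome 9 at 120929216 to 120960507 (mm10, plus strand). Its level was 1142, 1182 and 734 CPM in the 3 melanoblast libraries, 178, 561, 302 and 371 CPM in the 4 adult libraries, and 268 and 307 CPM in the 2 aged libraries. Every McSC library lay below every melanoblast library, and melanoblast replicate 3 and adult replicate 2 lay closest to each other. The log2 fold change in adult McSC against melanoblasts was -1.53 (SE 0.29, edgeR adjusted p = 0.000218). Per kilobase of exon Ctnnb1 was the most abundant member in every library, averaging 196 ± 47.7 CPM per kb in melanoblasts (SD, n = 3), 68.0 ± 30.8 in adult McSC (n = 4) and 55.3 ± 5.31 in aged McSC (n = 2).

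**Figure D2:**
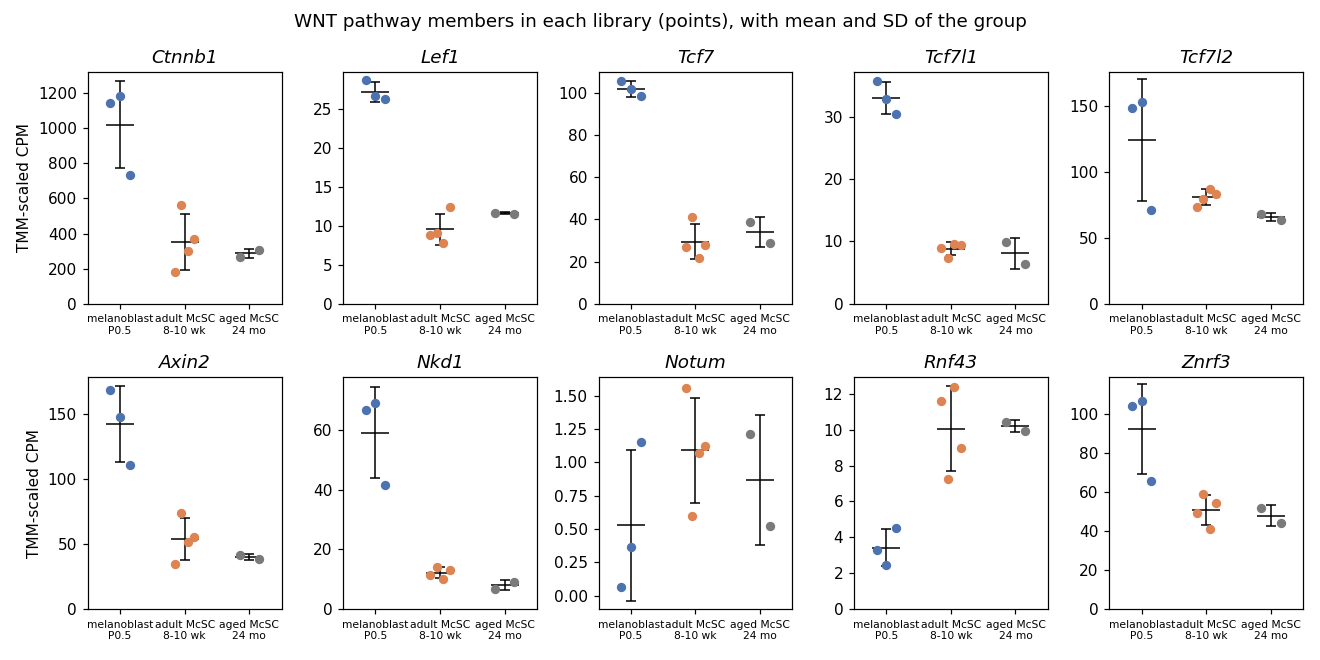
TMM-scaled CPM (y axis, linear) of the 10 members in melanoblast, adult McSC and aged McSC libraries (x axis, by age). Points are libraries, horizontal marks are group means and error bars are SD (n = 3, 4 and 2). Melanoblast points lie above all McSC points for Ctnnb1, Lef1, Tcf7, Tcf7l1, Axin2, Nkd1 and Znrf3, and below them for Rnf43; Tcf7l2 and Notum overlap between melanoblasts and adult McSC.

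Among the LEF/TCF factors, Lef1, Tcf7 and Tcf7l1 fell in adult McSC at log2 fold changes of -1.51 to -1.90 (-0.70 to -1.06 with abundant-gene factors), and Tcf7l2 had the value nearest 0. Lef1 (chromosome 3, 131110471 to 131224356, plus strand), a factor studied in melanocyte development, had 28.8, 26.7 and 26.3 CPM in melanoblasts, 8.84, 9.15, 7.80 and 12.4 CPM in adult McSC, and 11.7 and 11.6 CPM in aged McSC. The McSC libraries did not overlap with melanoblasts. The log2 fold change in adult McSC against melanoblasts was -1.51 (SE 0.23, edgeR adjusted p = 2.37e-05).

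Tcf7 (chromosome 11, 52252371 to 52283014, minus strand), which encodes TCF1, had 106, 101 and 98.2 CPM in melanoblasts, 26.7, 41.1, 21.8 and 27.8 CPM in adult McSC, and 38.9 and 28.8 CPM in aged McSC. The melanoblast libraries lie close together and stand clear of the 6 McSC libraries, where adult replicate 2 is highest. Adult McSC against melanoblasts gave a log2 fold change of -1.79 (SE 0.23, edgeR adjusted p = 1.85e-06). Tcf7 and Lef1 are also well known T cell genes, so T and NK cell markers are given beside them, although the sort took cells without CD45, which T and NK cells carry. The 8 markers summed to 2.24 to 7.72 CPM in melanoblasts, 8.08 to 15.6 CPM in adult McSC and 14.5 to 17.9 CPM in aged McSC, with Cd5 the most abundant and no marker at 0 in all libraries of a group. Of these markers 0 of 8 passed the test in adult McSC against melanoblasts (3 with an unadjusted p under 0.05). With other settings 3 were called higher with abundant-gene factors, 3 without melanoblast replicate 3, 2 with DESeq2 and 1 with limma voom, and in aged McSC against melanoblasts 3 were higher. Markers of other immune cells differed as well. Of 7 macrophage and dendritic cell markers, 2 were higher in adult McSC and 5 in aged McSC than in melanoblasts, with none lower. Of 5 mast cell markers tested, 2 were lower at both ages than in melanoblasts and none was higher. The part of any of these cells in the levels of Tcf7 and Lef1 was not tested.

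Tcf7l1 (chromosome 6, 72626378 to 72789254, minus strand), which encodes TCF3, a family member known mainly as a repressor, had 35.7, 32.8 and 30.5 CPM in melanoblasts, 8.88, 7.40, 9.53 and 9.49 CPM in adult McSC, and 9.87 and 6.37 CPM in aged McSC. The McSC libraries were all well below the melanoblast libraries. In adult McSC against melanoblasts its log2 fold change was -1.90 (SE 0.24, edgeR adjusted p = 1.23e-06).

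Tcf7l2 (chromosome 19, 55741820 to 55933654, plus strand), which encodes TCF4 and can activate or repress, had 149, 153 and 70.9 CPM in melanoblasts, 73.8, 79.7, 87.3 and 83.6 CPM in adult McSC, and 68.2 and 63.7 CPM in aged McSC. Melanoblast replicate 3 lay below all 4 adult libraries, so these groups overlap. The log2 fold change in adult McSC against melanoblasts was -0.62 (SE 0.24, edgeR adjusted p = 0.0472). This call was kept under 2 of 17 alternative settings, lost under 14 and reversed in direction, uncalled, under the abundant-gene factors.

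Counts per gene pool every transcript of that gene, and LEF/TCF genes are known to make shorter proteins from internal starts that lack the part which binds beta-catenin. RefSeq promoter windows on GRCm38.p6 were matched for 8 of the 10 members, with 15 start sites in all, and Notum and Znrf3 had none. The 250 bases before each start are shown for the upstream and an internal start of Lef1 and of Tcf7l2, because the counts cannot separate transcripts of the 2 kinds. The window of Axin2, the most widely used readout of the pathway, is shown as well. All are on the plus strand and read 5′ to 3′, and capitals mark a match on either strand to the LEF/TCF letters CTTTGAA, with A or T allowed at each of the last 2 positions.
Lef1 upstream start, chr3:131110047-131110296: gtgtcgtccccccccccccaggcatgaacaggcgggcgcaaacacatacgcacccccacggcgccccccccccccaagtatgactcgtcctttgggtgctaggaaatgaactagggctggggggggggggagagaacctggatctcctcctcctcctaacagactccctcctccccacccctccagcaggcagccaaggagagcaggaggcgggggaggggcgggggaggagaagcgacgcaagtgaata
Lef1 internal start, chr3:131156044-131156293: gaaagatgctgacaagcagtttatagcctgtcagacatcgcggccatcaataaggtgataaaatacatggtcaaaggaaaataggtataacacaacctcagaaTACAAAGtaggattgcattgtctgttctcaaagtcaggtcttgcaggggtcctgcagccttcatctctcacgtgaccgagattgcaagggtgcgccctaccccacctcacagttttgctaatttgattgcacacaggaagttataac
Tcf7l2 upstream start, chr19:55741560-55741809: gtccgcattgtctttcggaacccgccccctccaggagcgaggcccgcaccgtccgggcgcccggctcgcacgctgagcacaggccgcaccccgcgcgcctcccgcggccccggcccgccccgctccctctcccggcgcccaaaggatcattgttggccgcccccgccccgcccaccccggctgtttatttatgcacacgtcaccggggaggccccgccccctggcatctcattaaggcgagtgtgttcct
Tcf7l2 internal start, chr19:55895071-55895320: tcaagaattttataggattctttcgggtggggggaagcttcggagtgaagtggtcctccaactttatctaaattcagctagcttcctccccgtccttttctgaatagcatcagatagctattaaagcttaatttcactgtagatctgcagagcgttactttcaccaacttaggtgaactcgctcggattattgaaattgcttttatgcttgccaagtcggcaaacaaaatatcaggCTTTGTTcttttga
Axin2 start, chr11:108920099-108920348: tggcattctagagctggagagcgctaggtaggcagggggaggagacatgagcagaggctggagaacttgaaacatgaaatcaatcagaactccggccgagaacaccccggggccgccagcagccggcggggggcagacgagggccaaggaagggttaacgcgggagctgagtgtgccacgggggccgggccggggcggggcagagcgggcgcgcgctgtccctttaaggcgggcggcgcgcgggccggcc

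The internal start shown for Lef1 lies 45823 bases into the gene and that for Tcf7l2 lies 153501 bases into the gene, both between annotated GENCODE exons. The Lef1 internal window holds TACAAAG 147 bases before the start, which is CTTTGTA read on the other strand, and the Tcf7l2 internal window holds CTTTGTT 14 bases before the start. No other of the 15 windows holds one of these letter runs in the 250 bases before the start. The internal starts shown are thus the only ones of any member whose windows hold one. Lef1 has a further internal start 2320 bases into the gene (50.8% GC, 6 CpG). An internal start of Tcf7 lies 419 bases into the gene (64.4% GC, 15 CpG). Neither of these windows holds such letters. Over all 32851 RefSeq mouse windows, 14.8% hold such letters before the start, and 16.9% hold them in the 300 bases that run past it. The 2 internal windows shown have 44.8% GC with 5 CpG in Lef1 and 40.8% GC with 7 CpG in Tcf7l2. The upstream windows have 66.4% GC with 11 CpG in Lef1 and 72.8% GC with 30 CpG in Tcf7l2, and the Axin2 window has 69.2% GC with 24 CpG. A run of letters is a description of the window and not a binding site, and reads of the separate starts were not measured.

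Within the LEF/TCF transcripts, Tcf7l2 held a larger share and Tcf7 and Tcf7l1 a smaller share in every adult McSC library than in any melanoblast library. Levels were divided by exon length and each gene was taken as a share of the summed level of the 4 genes, which does not depend on the scaling factor of a library. It does depend on gene length: merged exons span 8775 bases in Tcf7l2 and 2625 in Tcf7, and their longest transcripts 3715 and 2471. In CPM without length scaling, Tcf7l2 was above Tcf7 in every McSC library. With longest transcripts the adult minus melanoblast differences were 20.8 percentage points for Tcf7l2, -14.9 for Tcf7 and -4.33 for Tcf7l1. Tcf7l2 made up 38.5%, 32.8%, 46.1% and 39.8% of the sum in adult McSC, against 24.4%, 25.9% and 14.4% in melanoblasts. The adult shares were all higher, by 17.8 percentage points on average. Tcf7 made up 46.5%, 56.6%, 38.5% and 44.2% in adult McSC, against 57.8%, 57.2% and 66.5% in melanoblasts, with no overlap and a difference of -14.06 percentage points. The share of Tcf7l1 averaged 9.63% ± 1.94 in adult McSC and 13.1% ± 0.70 in melanoblasts (SD, n = 4 and 3). Each of these 3 differences had p = 0.0571 in an exact two-sided permutation test over libraries, the smallest p that 4 against 3 libraries allow, and 0.152 after adjustment over 8 share tests. The share of Lef1 was 4.60% ± 0.93 in adult McSC and 4.85% ± 0.43 in melanoblasts (SD, n = 4 and 3; exact permutation p = 0.686).

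In aged McSC, Tcf7l2 made up 29.4% and 34.3%, Tcf7 56.1% and 51.8%, Tcf7l1 9.50% and 7.66% and Lef1 5.04% and 6.22%. All 4 factors overlapped between aged and adult McSC, and exact permutation p ran from 0.267 to 0.533 where 2 against 4 libraries allow no p under 0.133. The summed level was 69.5, 67.5 and 56.3 CPM per kb in melanoblasts, 21.8, 27.6, 21.6 and 24.0 in adult McSC and 26.5 and 21.2 in aged McSC. Every McSC library had a lower sum than every melanoblast library. Unlike the shares, these sums depend on the scaling factor. With abundant-gene factors Lef1 (-0.11), Tcf7 (-0.45) and Tcf7l2 (0.27) were not called in aged McSC against melanoblasts, and Tcf7l1 was still called lower.

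**Figure D3:**
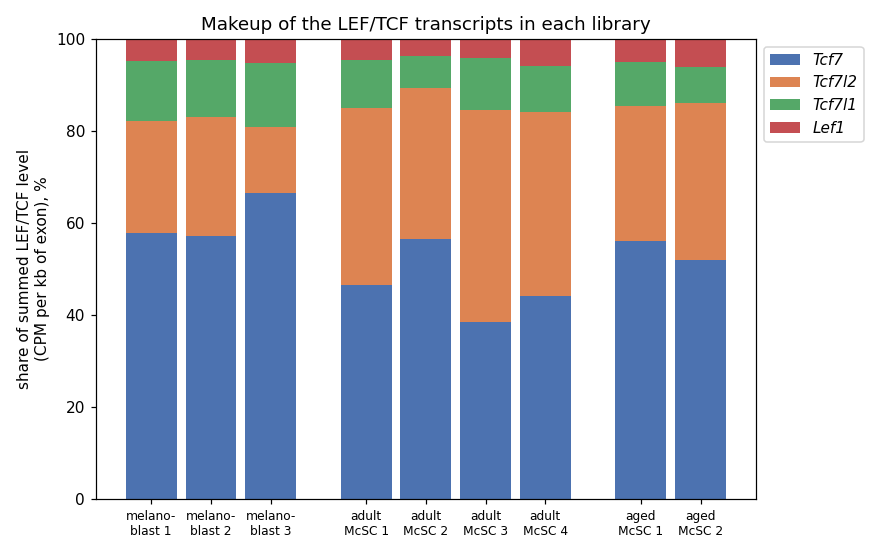
Share of each factor (percent, y axis) in the summed LEF/TCF level, as CPM per kb of exon, in each library (x axis, by age). With merged exon length, Tcf7 is the largest segment in every library except adult replicate 3, where Tcf7l2 holds 46.1% and Tcf7 38.5%. The order of these genes depends on the length used. The Tcf7l2 segment is 14.4% to 25.9% in melanoblasts and 29.4% to 46.1% in McSC.

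Of the feedback inhibitors, Axin2, Nkd1 and Znrf3 fell in adult McSC and Rnf43 rose, with the call for Znrf3 lost under abundant-gene factors. Axin2, a scaffold of the destruction complex, lies on chromosome 11 at 108920349 to 108950783. It had 169, 148 and 111 CPM in melanoblasts, 35.0, 74.1, 51.6 and 55.2 CPM in adult McSC, and 41.5 and 38.7 CPM in aged McSC. All McSC libraries were below all melanoblast libraries. The log2 fold change in adult McSC against melanoblasts was -1.40 (SE 0.24, edgeR adjusted p = 7.09e-05).

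The ratio of Axin2 to Ctnnb1 per kilobase of exon was chosen after values were seen. It was 0.185, 0.124, 0.161 and 0.140 in adult McSC, against 0.140, 0.118 and 0.143 in melanoblasts. These ranges overlap, and the mean was 1.14 times as high in adult McSC (exact two-sided permutation p = 0.286, where the smallest possible is 0.0571). In aged McSC the ratio was 0.146 and 0.119, against the adult values above (exact permutation p = 0.533).

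Nkd1, which encodes a protein that binds Dishevelled and dampens the signal, lies on chromosome 8 at 88521354 to 88594884. It had 66.7, 69.0 and 41.5 CPM in melanoblasts, 11.5, 14.2, 9.95 and 13.0 CPM in adult McSC, and 6.83 and 9.20 CPM in aged McSC. The 3 groups are separate, with aged McSC lowest. Nkd1 had the lowest log2 fold change of the members in adult McSC against melanoblasts, at -2.28 (SE 0.24, edgeR adjusted p = 1.02e-07), a level 4.85 times lower.

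Rnf43 and Znrf3 encode related membrane ubiquitin ligases that clear Frizzled receptors from the cell surface. With TMM factors from all genes they were called in opposite directions, whereas with abundant-gene factors Znrf3 was at -0.01 and of the pair only Rnf43 was called. Rnf43 (chromosome 11, 87662722 to 87735539, plus strand) had 3.30, 2.45 and 4.52 CPM in melanoblasts, 11.6, 7.23, 12.4 and 8.99 CPM in adult McSC, and 10.4 and 9.95 CPM in aged McSC. Every McSC library was above every melanoblast library. The log2 fold change in adult McSC against melanoblasts was 1.55 (SE 0.32, edgeR adjusted p = 0.000524), and the call held under all 17 alternative settings.

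Znrf3 (chromosome 11, 5276324 to 5444847, minus strand) had 104, 107 and 65.4 CPM in melanoblasts, 49.0, 58.8, 41.2 and 54.4 CPM in adult McSC, and 51.7 and 44.0 CPM in aged McSC. Melanoblast replicate 3 lay close to the highest adult library, but the groups did not overlap. In adult McSC against melanoblasts the log2 fold change was -0.86 (SE 0.22, edgeR adjusted p = 0.00462). The call was lost with abundant-gene factors and with a stricter filter of at least 5 CPM in at least 2 libraries, where the value was -0.36 with an adjusted p of 0.0845.

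The ratio of Rnf43 to Znrf3 per kilobase of exon needs no scaling factor and was chosen after values were seen. It was 0.285, 0.148, 0.362 and 0.199 in adult McSC, against 0.0381, 0.0277 and 0.0831 in melanoblasts. Adult values were all higher, with a mean 5.01 times that of melanoblasts (exact two-sided permutation p = 0.0571, the smallest possible). In aged McSC the ratio was 0.243 and 0.272, inside the adult range (exact permutation p = 0.933). Znrf3 remained the more abundant of the pair in every library. Rnf43 is also expressed in epithelia, and the keratinocyte and follicle markers given above were higher in adult McSC in the same direction. These markers summed to 802 to 982 CPM in aged McSC, against 1008 to 2230 CPM in adult McSC, with no marker called. Rnf43 had a log2 fold change of 0.02 in aged against adult McSC. The part of epithelial cells in the Rnf43 level was not tested.

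Notum (chromosome 11, 120653788 to 120661175, minus strand), which encodes a secreted enzyme that removes the lipid of WNT ligands, was the scarcest member. It had 1, 7 and 23 counts in melanoblasts, 40, 14, 26 and 27 counts in adult McSC, and 30 and 9 counts in aged McSC, or at most 1.56 CPM. The limit that a count of 0 allows was 0.117 to 0.187 CPM, and melanoblast replicate 1 lay under it at 0.06 CPM. The groups overlapped through melanoblast replicate 3, and the adult against melanoblast log2 fold change of 1.02 (SE 0.75) did not pass (edgeR adjusted p = 0.301). It did pass without melanoblast replicate 3, at 2.28 with an adjusted p of 0.0336, and with limma voom, at 2.59 with an adjusted p of 0.0124. Among the members, all but Znrf3 overlap other annotated genes in the genome, and Notum overlaps 2 antisense genes. Strand use in counting is not given in the sources used here, so reads of overlapping genes cannot be told apart.

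The order of the members by level per kilobase of exon ran Ctnnb1, Tcf7, Axin2, Tcf7l2, Nkd1, Znrf3, Tcf7l1, Lef1, Rnf43 and Notum in melanoblasts, at means from 196 down to 0.219 CPM per kb. Of these, Tcf7l2 at 14.2 ± 5.28 and Nkd1 at 13.0 ± 3.35 CPM per kb (SD, n = 3) were within their spread, with Tcf7l2 the higher in 2 of 3 libraries, and Znrf3 at 11.7 ± 2.92 lay within the spread of Nkd1. In adult McSC, Tcf7 at 11.2 ± 3.14, Axin2 at 9.80 ± 2.91 and Tcf7l2 at 9.24 ± 0.658 CPM per kb (SD, n = 4) were within their spread of each other. Tcf7 exceeded Axin2 in 3 of 4 adult libraries, and Axin2 exceeded Tcf7l2 in 2 of 4. Rnf43 at 1.53 ± 0.363 CPM per kb stood above Lef1 at 1.09 ± 0.226 on average in adult McSC, and in 3 of the 4 libraries. In aged McSC Tcf7l2 at 7.52 ± 0.361 and Axin2 at 7.28 ± 0.362 CPM per kb (SD, n = 2) did not differ beyond their spread, nor did Tcf7l1 and Nkd1 at 2.07 ± 0.630 and 1.76 ± 0.368. These orders rest on merged exon length. Lef1 has 8788 bases of merged exon and a longest transcript of 3656, against 6558 and 4310 in Rnf43. Dividing by the longest transcript raises Lef1 relative to Rnf43, and Tcf7l2 relative to Tcf7 and Axin2, in every group.

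None of the 10 members passed the test between aged and adult McSC, where 0.303% of all genes tested did (97 of 31961; 0.0532% higher and 0.25% lower). At an unadjusted p under 0.05 there was 1, Nkd1, against 3275 of all genes. No member passed with DESeq2 or limma voom either. Log2 fold changes ran from -0.60 for Nkd1 (SE 0.28, edgeR adjusted p = 0.476) to 0.29 for Lef1 (SE 0.27, adjusted p = 0.726). Aged libraries lay below all adult libraries for Nkd1 and Tcf7l2 and overlapped with them for 8 members, where 27.7% of all genes did not overlap (12.1% lower and 15.5% higher). A p that misses the threshold does not show equal levels: the 95% confidence interval of the log2 fold change ran from -0.62 to 0.44 for Znrf3, from -0.98 to 0.38 for Ctnnb1 and from -0.26 to 0.84 for Lef1. For Rnf43 it ran from -0.67 to 0.71 and for Notum from -2.02 to 1.39.

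Against melanoblasts, aged McSC gave calls for 9 members, 8 lower and Rnf43 higher, where 40.7% of all genes were called, 20.3% as lower and 20.4% as higher. This comparison and the adult one use the same melanoblast libraries. Nkd1 had a log2 fold change of -2.88 (SE 0.32, edgeR adjusted p = 4.52e-07) in aged McSC against melanoblasts, and Axin2 of -1.83 (SE 0.31, adjusted p = 6.68e-05). Rnf43 was at 1.57 (SE 0.36, adjusted p = 0.00145). Lef1 was at -1.23 (SE 0.29, adjusted p = 0.0021). With abundant-gene factors 5 members were called, 4 lower and 1 higher, where 16867 of 31961 genes were called, 15120 higher and 1747 lower. Lef1 (-0.11, edgeR adjusted p = 0.741), Tcf7 (-0.45), Tcf7l2 (0.27) and Znrf3 (0.22) were then not called. Groups did not overlap for 8 members that were lower and 1 that was higher, where 66.2% of all genes were separated (25.7% lower and 40.4% higher).

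**Figure D4:**
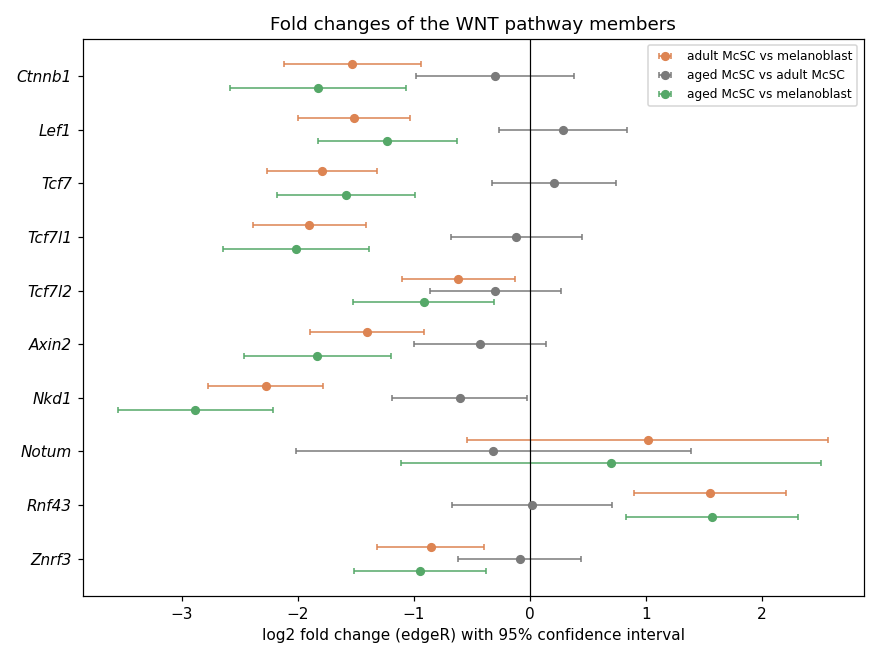
Log2 fold change of each member (x axis, edgeR) in adult McSC against melanoblasts, aged against adult McSC, and aged McSC against melanoblasts; bars are 95% confidence intervals. With TMM factors from all genes, intervals against melanoblasts lie below 0 for 8 members and above 0 for Rnf43 at both ages, although Tcf7l2 (both ages) and Znrf3 (aged) turn positive with abundant-gene factors; aged against adult intervals include 0 for every member except Nkd1, whose interval ends at -0.02 before adjustment for many genes.

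Other genes of the pathway, 94 in 10 lists by role of which 93 were tested, gave 11 higher and 27 lower calls in adult McSC against melanoblasts. Their median log2 fold change was -0.10, against 0.39 over all genes. Of all genes tested, 15.1% were called higher and 18.3% lower, and of those with a mean log2 CPM above 5, 6.36% and 63.9%. With abundant-gene factors the split turned to 34 higher and 12 lower with a median of 0.76. All 31961 genes then gave 10785 higher and 1784 lower calls, with a median of 1.18. The balance of directions thus depends on the scaling. Without melanoblast replicate 3 there were 18 higher and 34 lower calls.

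Of 19 WNT ligands only Wnt5a, which signals largely without beta-catenin, was called, as higher (6 ligands with abundant-gene factors and 5 without melanoblast replicate 3, all higher). Wnt5a had 7.52, 9.32, 8.50 and 8.66 CPM in adult McSC, against 1.93, 6.25 and 2.86 CPM in melanoblasts (log2 fold change 1.20, SE 0.34, edgeR adjusted p = 0.00922), and 12.5 and 20.1 CPM in aged McSC. The call was lost without melanoblast replicate 1 (0.90, adjusted p = 0.0655). Wls, the carrier that brings WNT ligands to the surface, fell at a log2 fold change of -1.11. Of 12 Frizzled and LRP receptors, Fzd6 (-1.26), Fzd3 (-1.14) and Lrp6 (-1.08) fell and Fzd2 rose (1.92), whereas with abundant-gene factors 7 were called higher and none lower, with a list median of 0.80. Ptk7, a co-receptor of non-canonical WNT signalling, fell at -1.12 and was the only 1 of 4 in its list. Wls, Fzd6, Fzd3, Lrp6 and Ptk7 were no longer called with abundant-gene factors, at values from -0.41 to -0.26.

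R-spondins and their LGR receptors counter RNF43 and ZNRF3, and 3 of the 7 tested rose with none called lower. With abundant-gene factors 5 were called higher and none lower. Calls were 2 higher and 1 lower with limma voom, and 3 higher and 1 lower without melanoblast replicate 3. In aged McSC against melanoblasts 3 were higher and 1 was lower. Lgr6, a receptor that also marks follicle stem cells, had 41.8, 47.7, 70.8 and 76.8 CPM in adult McSC, against 12.9, 7.77 and 5.07 CPM in melanoblasts (log2 fold change 2.79, SE 0.30, edgeR adjusted p = 1.7e-07). Lgr5, another receptor and follicle stem cell marker, had 36.0, 28.5, 39.0 and 43.0 CPM in adult McSC, against 8.28, 9.02 and 6.32 CPM in melanoblasts (2.22, SE 0.25, adjusted p = 2.65e-07). Adult libraries lay above all melanoblast libraries for both. Rspo4 was also higher, at 1.77 (adjusted p = 0.0226), with no library above 3.72 CPM, and its call was lost under 4 of 16 settings. The keratinocyte and follicle markers moved in the same direction as these receptors, and their part was not tested.

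Of 12 secreted antagonists, 3 rose and 1 fell. Sfrp1, which binds WNT ligands, had 70.7, 47.6, 88.4 and 62.8 CPM in adult McSC, against 11.7, 9.07 and 1.56 CPM in melanoblasts (log2 fold change 3.19, SE 0.47, edgeR adjusted p = 7.91e-05). Sostdc1, an inhibitor of BMP and WNT signals, was at 3.08 (SE 0.32, adjusted p = 6.78e-08) and Dkk2, a ligand of LRP receptors, at 2.57 (SE 0.38, adjusted p = 1.31e-05). Sfrp2 went the other way, at -3.50 (SE 0.48, adjusted p = 4.64e-06), with 0.37 to 0.86 CPM in adult McSC, against 4.27 to 8.46 CPM in melanoblasts. All 4 calls held under each alternative that could be fitted. The keratinocyte and follicle markers given above moved in the same direction as Sfrp1, Sostdc1 and Dkk2, and their part was not tested. Sfrp2 is also a fibroblast gene: 4 of 7 fibroblast markers were lower and 1 was higher in adult McSC than in melanoblasts, with sums of 465 to 932 CPM in adult McSC and 545 to 2068 CPM in melanoblasts. With abundant-gene factors no fibroblast marker was called lower, and without melanoblast replicate 3 there were 6. Of 7 dermal papilla markers, 2 were higher and 1, Vcan, was lower, and none was at 0 in all libraries of a group. They summed to 65.6 to 81.2 CPM in adult McSC and 624 to 896 CPM in melanoblasts, with Vcan the most abundant. The part of these cells was not tested.

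In the destruction complex and beta-catenin turnover list, 8 of 14 fell and none rose, with a median log2 fold change of -0.83, whereas with abundant-gene factors 4 were lower and 3 higher, with a median of -0.02. Those with the smallest p were Tnks2 (-1.35) and Tnks (-1.34), the tankyrases that turn over AXIN, Dvl3 (-1.36), a Dishevelled that carries the receptor signal, and Gsk3b (-1.26), the kinase that marks beta-catenin. Of 11 nuclear cofactors and corepressors, 7 fell and 1 rose, with a median of -1.07, whereas with abundant-gene factors 3 were lower and 3 higher. Pygo1, a co-activator that reads histone marks beside beta-catenin, fell at -2.11 (SE 0.23, edgeR adjusted p = 1.82e-07) and had 21.9, 42.3, 29.8 and 29.2 CPM in adult McSC, against 153, 134 and 112 CPM in melanoblasts. Ctnnbip1, an inhibitor that blocks beta-catenin from TCF, fell at -1.71, the corepressor Tle1 at -1.36 and the short TLE protein gene Tle5 at -1.27. The Tle5 call was lost with abundant-gene factors (-0.46, adjusted p = 0.155). Both activators and inhibitors of the pathway are among these calls.

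Of 9 other target or feedback genes tested, 4 fell and 2 rose (3 and 4 with abundant-gene factors). Ccnd1, which encodes cyclin D1 of the cell cycle, had 8.73, 20.6, 13.3 and 18.9 CPM in adult McSC, against 75.4, 74.2 and 66.8 CPM in melanoblasts (log2 fold change -2.23, SE 0.26, edgeR adjusted p = 5.92e-07). Tnfrsf19 (-1.87) and Nkd2 (-1.49), the partner of Nkd1, fell too. Myc rose, with 171, 163, 157 and 127 CPM in adult McSC, against 76.6, 78.1 and 74.8 CPM in melanoblasts (1.01, SE 0.23, adjusted p = 0.00122). Of the 3 melanocyte targets, Dct, a pigment enzyme gene, fell at -1.51 and Mitf, the lineage factor, at -1.09. The third, Pou3f2, went the other way at 1.37 and was not called (edgeR adjusted p = 0.224). With limma voom, and without melanoblast replicate 3, 1 of the 3 was called higher and 2 lower. The Mitf call was lost with abundant-gene factors (-0.29, adjusted p = 0.157). Between aged and adult McSC none of the 93 passed and 9 had an unadjusted p under 0.05. Of all 31961 genes, 97 passed and 3275 had an unadjusted p under 0.05. The lowest adjusted p, 0.097, was that of Sostdc1, with 18.6 and 21.6 CPM in aged McSC, against 47.5, 37.9, 69.3 and 50.8 CPM in adult McSC. Against melanoblasts, 14 were higher and 33 lower in aged McSC, where 20.4% of all genes tested were called higher and 20.3% lower. Abundant-gene factors moved the median of all genes by 1.07 on the log2 scale in this comparison, so these counts also rest on the scaling.

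**Figure D5:**
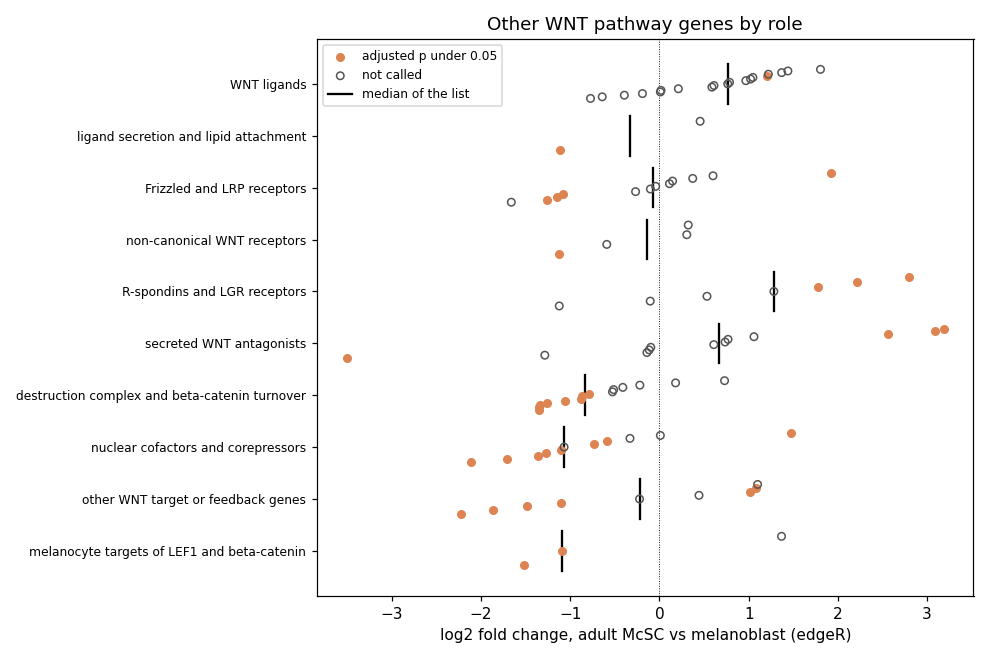
Log2 fold change in adult McSC against melanoblasts (x axis, edgeR) of 93 other WNT pathway genes, 1 point a gene, in rows by role; filled points passed at an adjusted p under 0.05, open points did not, and vertical bars are list medians. All 8 called genes of the destruction complex row lie left of 0 with TMM factors from all genes (4 lower and 3 higher with abundant-gene factors), and the called R-spondin and LGR genes lie at 1.77 to 2.79.

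Over the 9 libraries, the genes with the profile nearest to each of 2 members were ranked by Pearson correlation of log2 CPM, among 8033 protein-coding genes with a mean of at least 10 CPM. For Lef1 they were Naa20 (r = 0.985), Kif22 (0.982), Trub2 (0.978), Ncaph (0.977) and Cdc45 (0.976). For Axin2 they were Atmin (0.998), Ufm1 (0.997), Actb (0.996), Ccdc127 (0.996) and Tcf25 (0.996). Within groups, as deviations from group means, r was 0.507 to 0.849 for the 5 genes near Lef1 and 0.973 to 0.988 for the 5 near Axin2. Ctnnb1 had r = 0.980 with Axin2, rank 492 among these genes, and 0.961 within groups. Lef1 had r = 0.863 with Axin2, only rank 4441 of the 8033, and 0.233 within groups. Libraries share their group, depth and scaling factor, so these values are a description of 9 points.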

How the data were processed

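RNA-seq was compared in 9 libraries, grouped by their titles. Per the labels' protocols, 20 ng of RNA was amplified (Ovation V2) and sequenced as 126-base pairs. The submitters' processing notes name build mm10 and, with no order, the tools STAR 2.5.2, Trimmomatic 0.36, SAMtools 1.9, FastQC 0.11.8 and DESeq2 1.22.2. How reads were assigned to genes, and whether strand was used, is not stated there. What the authors deposited is a raw count for each Ensembl gene, without normalization. GENCODE matched 49326 of 49671 identifiers, and 345 more, with 0.047% of all counts, were kept.

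From these, genes kept by filterByExpr were fitted with edgeR 4.0.16 (R 4.3.3) and TMM factors in a group means model over 9 libraries, with the robust quasi-likelihood test, adjusted over 31961 genes per comparison. Exon length is the merged length of all annotated exons. Intervals of fold changes are 95% confidence intervals from the fit. Shares and ratios were tested by exact permutation over libraries. Settings tried instead were RLE factors, factors from abundant genes, limma voom (3.58.1, sample quality weights), DESeq2 1.42.0, no filter, a stricter filter, only the compared groups, a replicate block (for shares and ratios, differences within replicate numbers, added after seeing the data), other gene lengths and each library left out. Members and lists were chosen with earlier results of these data known. Named genes were all members, up to 4 per role list with the smallest p among those called in adult against melanoblast, up to 2 likewise in aged against adult (with none called, the 2 most abundant), the leading marker of a list by CPM, and the 5 genes nearest Lef1 and Axin2. Pou3f2 was named as well, to complete its list.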

Additional observations from a re-analysis of the deposited data

How the results depend on the processing

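Ctnnb1, Lef1, Tcf7, Tcf7l1, Axin2, Nkd1 and Rnf43 kept their direction and call in adult McSC against melanoblasts under all 17 alternatives. Members called there numbered 7 to 10, with 0 between aged and adult McSC under every alternative. Counting error is largest for Notum, at 1 to 40 counts, and the effect of depth on the other members was not tested. With factors from abundant genes, 5 members were called in aged McSC against melanoblasts, where 16867 of 31961 genes were called. Under these factors fold changes (log2) turned to 0.27 for Tcf7l2 in adult against melanoblast, and to 0.27 for Tcf7l2 and 0.22 for Znrf3 in aged against melanoblast. Tcf7l2 lost its call in aged against melanoblast without either aged library (-0.91 and -0.74), and Znrf3 without aged replicate 2 (-0.71). Tcf7l2 also lost it without melanoblast replicate 1 (-0.77) or 2 (-0.74) and with only the compared groups (-0.78), at edgeR adjusted p of 0.0693, 0.0743 and 0.0554. With the stricter filter, Lef1 (-0.54, adjusted p = 0.0733), Tcf7l2 (-0.19, adjusted p = 0.499) and Znrf3 (-0.23, adjusted p = 0.338) lost their calls in aged against melanoblast.

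Between aged and adult McSC, where no member was called, directions turned with abundant-gene factors for Ctnnb1 (0.067), Tcf7l1 (0.19), Tcf7l2 (0.0073) and Znrf3 (0.23), and with the stricter filter for Tcf7l1 (0.089) and Znrf3 (0.13). Rnf43 turned with DESeq2 (-0.062), RLE factors (-0.062) and no filter (-0.016). With a library left out, values ran from -0.49 to 0.017 for Ctnnb1, -0.053 to 0.45 for Tcf7, -0.51 to 0.20 for Tcf7l1, -1.09 to 0.19 for Notum, -0.24 to 0.064 for Znrf3 and -0.11 to 0.14 for Rnf43. The adult minus melanoblast difference in the Lef1 share ran from -0.68 to 0.025 percentage points, and the aged minus adult difference in the Rnf43 to Znrf3 ratio from -0.024 to 0.047. The ratios' alternatives and the within-number differences of shares were chosen after seeing the data.

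Genes called numbered 6877 (adult against melanoblast) and 7611 (aged against melanoblast) with the stricter filter, which tests fewer genes. Aged against adult calls, 97 in the fit as reported, were 339 with DESeq2, 1416 with limma voom, 343 with no filter, 311 with only the compared groups, 45 with abundant-gene factors (22 higher and 23 lower) and 172 with the replicate block, and 13 to 303 with a library left out, lowest without aged replicate 2 and highest without melanoblast replicate 3. Aged against melanoblast calls were 7410 to 16292 with a library left out. The cause was not tested. Same-numbered libraries did not deviate together (r from -0.08 to 0.20). With the replicate block 8, 0 and 9 members were called in the 3 comparisons, and Tcf7l2 was not called in adult against melanoblast (-0.56, adjusted p = 0.11). As differences within replicate numbers, without adult replicate 4, the adult minus melanoblast values were 17.6 percentage points for the Tcf7l2 share, -13.3 for Tcf7, -3.61 for Tcf7l1 and -0.68 for Lef1, and 0.215 for the Rnf43 to Znrf3 ratio, each in 1 direction in 3 of 3 pairs (exact sign-flip permutation p = 0.25, the smallest that 3 pairs allow).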
